A study of Mus musculus with 8 samples.

Results

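Fatty acid binding proteins are small cytoplasmic carriers of fatty acids and related lipids, and 6 of their genes, *Fabp1*, *Fabp2*, *Fabp3*, *Fabp4*, *Fabp5* and *Fabp7*, were read on arrays of whole mouse embryos collected at E8.5. They are 6 of the 20660 genes with a named probe. Probes were chosen by the RefSeq transcript they were designed to, which gave 7 probes of the 55681 non-control probes on the array: 2 for *Fabp3* and 1 for each of the other genes. *Fabp4* was singled out for its lower signal in embryos of heterozygous fathers, so its difference between the father groups is given as a description with no test. The other 5 genes entered by family name. The embryos were *Eed* wt/wt and came from wild-type mothers, which the labels give as C57bl6/129 and a legend of the study as c57bl/6J. The fathers were *Eed* hypo/wt (labelled HET, 4 embryos) or *Eed* wt/wt (labelled WT, 4 embryos) males of the Eedl7Rn5-1989SB C57bl6/129 line, which carries a hypomorphic allele of *Eed*, a core subunit of the histone methyltransferase PRC2, and by the study's methods also an *Oct4*GFP transgene. Each group held 2 female and 2 male embryos, with 1 array per embryo.

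The comparison of the father groups asks whether a reduced dose of *Eed* in the father alters gene expression in offspring that do not inherit the allele. The 2 groups were hybridised on separate slides, and the genotype of the sire and the slide cannot be told apart, whereas the sexes were balanced within each slide. The legends of the study differ on the number of sires, and 3 of 4 embryos in the WT-father group share the first part of their code, so that p-values measure the spread between these embryos, which may share a sire or a litter. Between 29201 and 39539 probes were well above background per array, with the most in WT-father replicate 1 and HET-father replicate 3.

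In this family each carrier is known for the cells that use it. FABP1 and FABP2 serve absorptive and liver-type endoderm, FABP3 serves heart and skeletal muscle, and FABP4 is typical of fat cells, macrophages and part of the capillary endothelium. FABP5 is typical of epidermis and FABP7 of radial glia in the brain. The carriers bring fatty acids to membranes, mitochondria and lipid droplets, and some pass them to PPARs, nuclear receptors that pair with RXRs on repeats of the hexamer AGGTCA.

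Of the 6 genes, 4 had an entry in the RefSeq promoter table used (build GRCm38.p6), namely *Fabp1*, *Fabp2*, *Fabp3* and *Fabp7*. The 250 bases before the start are printed for *Fabp1* and *Fabp3*. *Fabp1* alone among the windows of members held a repeat of the kind that PPAR and RXR bind. Among the members tested between the father groups, which leave out *Fabp4*, *Fabp3* had the smallest unadjusted p. Capitals mark matches to TATAAA, to AGGTCA or to the repeat AGGNCANAGGNCA on either strand, and the windows are chr6:71199629-71199878 and chr4:130308488-130308737, both on the plus strand.
Fabp1: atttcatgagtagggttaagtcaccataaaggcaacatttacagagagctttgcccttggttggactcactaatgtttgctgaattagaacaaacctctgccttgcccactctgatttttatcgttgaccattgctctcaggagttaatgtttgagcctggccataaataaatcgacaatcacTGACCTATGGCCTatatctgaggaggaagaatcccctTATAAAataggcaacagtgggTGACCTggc
Fabp3: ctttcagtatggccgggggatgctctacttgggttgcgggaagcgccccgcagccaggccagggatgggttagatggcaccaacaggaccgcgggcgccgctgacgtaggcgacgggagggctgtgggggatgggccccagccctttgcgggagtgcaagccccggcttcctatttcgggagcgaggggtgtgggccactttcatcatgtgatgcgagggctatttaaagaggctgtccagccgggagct
The *Fabp1* window held TATAAA from -30 to -25, counted from the start, and AGGTCA on the minus strand from -67 to -62 and from -9 to -4. The first of these hexamers is part of the match to the longer repeat, which ran from -67 to -55 on the minus strand. Of 32851 windows of this length, 12.4% held TATAAA, 14% held AGGTCA and 0.338% held the repeat. No letters of these 3 motifs were in the *Fabp2* and *Fabp3* windows, and *Fabp7* held 1 match to AGGTCA, on the minus strand from -171 to -166. The *Fabp3* window had a GC content of 64.8%, against 42.8% for *Fabp1*, 35.6% for *Fabp2* and 54.8% for *Fabp7*. A match is a run of letters and not a measured binding site.

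All 7 probes were well above background on all 8 arrays, had 1 spot each and passed the filter on dim probes. Values are log2 signals on a scale where the 75th percentile of each array is 0, so that 1 unit is a 2-fold difference in signal. A signal depends on the probe as well as on the transcript, and levels are therefore compared between embryos and not between genes.

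*Fabp4* was lower in every embryo of an *Eed* hypo/wt sire than in any embryo of an *Eed* wt/wt sire. With *Eed* wt/wt sires it measured -2.37, -1.14, -2.74 and -2.20 in replicates 1 to 4, of which replicates 1 and 3 were female. With *Eed* hypo/wt sires it measured -4.46, -3.55, -3.19 and -3.88, of which replicates 2 and 4 were female. The male WT-father replicate 2 was the brightest and the male HET-father replicate 1 the dimmest, and a gap of 0.44 separated the groups.

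The mean *Fabp4* signal was -2.11 ± 0.69 (SD, n = 4) in the WT-father group. It was -3.77 ± 0.54 (SD, n = 4) in the HET-father group, a log2 difference of -1.66 or 3.16-fold. Of the 33094 probes tested over the whole array, 0.477% were at least 2-fold lower with *Eed* hypo/wt sires, and 1.41% were lower without overlap of the groups. These shares are given for scale, since *Fabp4* was chosen on this difference. It was -1.16 between the 2 and 2 females and -2.15 between the 2 and 2 males, and groups that do not overlap fix this direction. Across the 8 embryos the *Fabp4* signal spanned 10-fold with an SD of 1.06, where the median SD of the tested probes was 0.22. The span and this SD include the difference that *Fabp4* was chosen on, and are no separate result.

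**Figure D1:**
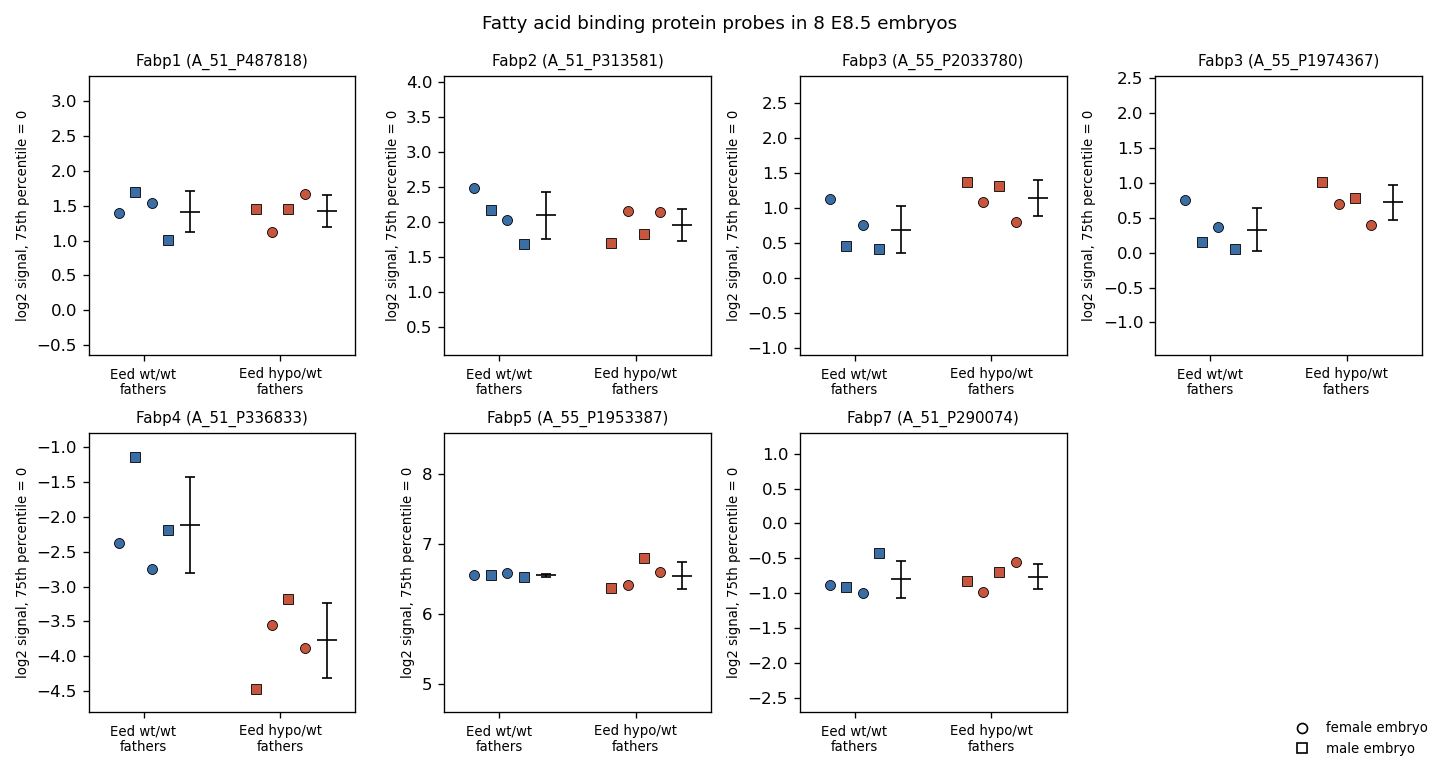
Log2 signal (75th percentile of each array at 0) of each member probe, with 1 point per embryo, circles for females and squares for males, and the mean and SD of the 4 embryos beside each group. Every vertical axis spans the same number of log2 units around its own centre, and the *Fabp4* groups are the only ones that do not overlap.

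The *Fabp4* probe was dim, and dimmer still on the slide of the HET-father embryos. Its processed intensities were 182, 578, 170 and 245 in WT-father replicates 1 to 4, which is 7.46 to 27.7 times the lowest signal called well above background on the same array. In HET-father replicates 1 to 4 they were 57.4, 91.2, 106 and 76.1, or 1.71 to 3.55 times that signal. Between 49.1% and 70.3% of the probes on an array were dimmer than *Fabp4*.

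The slides also differed at the negative control spots, whose median log2 intensity was between 2.08 and 2.31 on the WT-father slide and between 2.50 and 3.17 on the other, and their part in the *Fabp4* difference was not tested. With normexp background correction and quantile normalization the difference was -1.18, the smallest of the alternatives, and with array weights it was -1.95, the largest. With 1 embryo left out it lay between -1.87 and -1.33.

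Because whole embryos were measured, fewer cells of a type and less RNA per cell cannot be told apart. The marker genes of cells in which FABP4 is known were therefore read in the same embryos. All 12 endothelial genes were well above background and 12 of 12 were higher with *Eed* hypo/wt sires, by 0.003 (*Cdh5*) to 0.18 (*Tek*, a receptor for angiopoietins) on the log2 scale, with none at an unadjusted p under 0.05, and their median of 0.06 was -0.04 when arrays were aligned on medians. Their summed level, in units of the 75th percentile of each array, was 67.6 to 86 with *Eed* wt/wt sires and 77.3 to 90.9 with *Eed* hypo/wt sires.

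Of the 8 adipocyte genes, 4 were tested, and the defining genes *Plin1* (a lipid droplet coat protein) and *Lep* (leptin) were not well above background on any array, while *Adipoq* (adiponectin) was so on 3 of 8. The summed level of the list was 2.78 to 3.20 with *Eed* wt/wt sires and 3.28 to 4.12 with *Eed* hypo/wt sires. Without *Lpl*, a lipase of many tissues, the sums overlapped, at 1.52 to 1.92 and 1.75 to 2.16, a choice also made after seeing the data. The median of the tested genes was 0.10, or -0.005 with arrays aligned on medians, and *Retn* (resistin) differed by -0.37 (unadjusted p = 0.353). Of the 9 macrophage genes, 8 were matched and 4 tested, *Lyz2* (lysozyme) was not well above background on any array, and *Csf1r*, the receptor for macrophage colony stimulating factor, differed by 0.16. The largest difference in that list, -0.41 for *Tyrobp*, had an unadjusted p of 0.666 (limma). The summed level of the macrophage genes was 1.71 to 2.91 with *Eed* wt/wt sires and 2.21 to 2.77 with *Eed* hypo/wt sires, which overlapped.

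A decidual and a skin gene were lower in the same embryos as *Fabp4*. *Prl8a2*, a prolactin family hormone made by the maternal decidua around the embryo, measured 1.99, 2.92, 1.56 and 2.31 in WT-father replicates 1 to 4 and 0.72, 0.31, -2.61 and 0.54 in HET-father replicates 1 to 4. The groups did not overlap, as at 1.41% of probes in this direction, and the means differed by -2.45 (unadjusted p = 0.0127, adjusted p = 1, limma). Within the WT-father group *Prl8a2* ordered the embryos as *Fabp4* did, with replicate 2 highest and replicate 3 lowest. Within the HET-father group the order was the reverse of that of *Fabp4*. There the embryo with the lowest *Prl8a2*, HET-father replicate 3, had the highest *Fabp4*.

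In the list of 9 trophoblast and decidual genes, 8 were matched and 6 tested, with a median difference of -0.06. *Tpbpa*, which defines the spongiotrophoblast, was not well above background on any array, and *Dcn*, a stromal proteoglycan, differed by -0.06. The summed level of the list was 7.23 to 11.2 with *Eed* wt/wt sires and 2.71 to 6.01 with *Eed* hypo/wt sires. *Prl8a2* carried this separation, since without it, a choice made after seeing the data, the sums were 2.69 to 4.28 and 2.54 to 4.37, which overlapped. The part of decidual signal in the *Fabp4* difference was not tested.

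*Dmkn*, a secreted protein of stratified epithelia, measured -1.49, -1.12, -2.06 and -1.48 with *Eed* wt/wt sires and -3.50, -3.05, -3.49 and -2.26 with *Eed* hypo/wt sires. The groups did not overlap, as at 1.41% of probes in this direction, and the difference was -1.54 (unadjusted p = 0.00157, adjusted p = 1, limma). It was the sole gene of the 10 in the surface ectoderm list at an unadjusted p under 0.05. In that list 6 genes were lower and 4 higher with *Eed* hypo/wt sires, among the latter the keratin *Krt5* by 0.24. The median of the list was -0.06, and its summed level was 178 to 191 with *Eed* wt/wt sires and 155 to 190 with *Eed* hypo/wt sires.

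**Figure D2:**
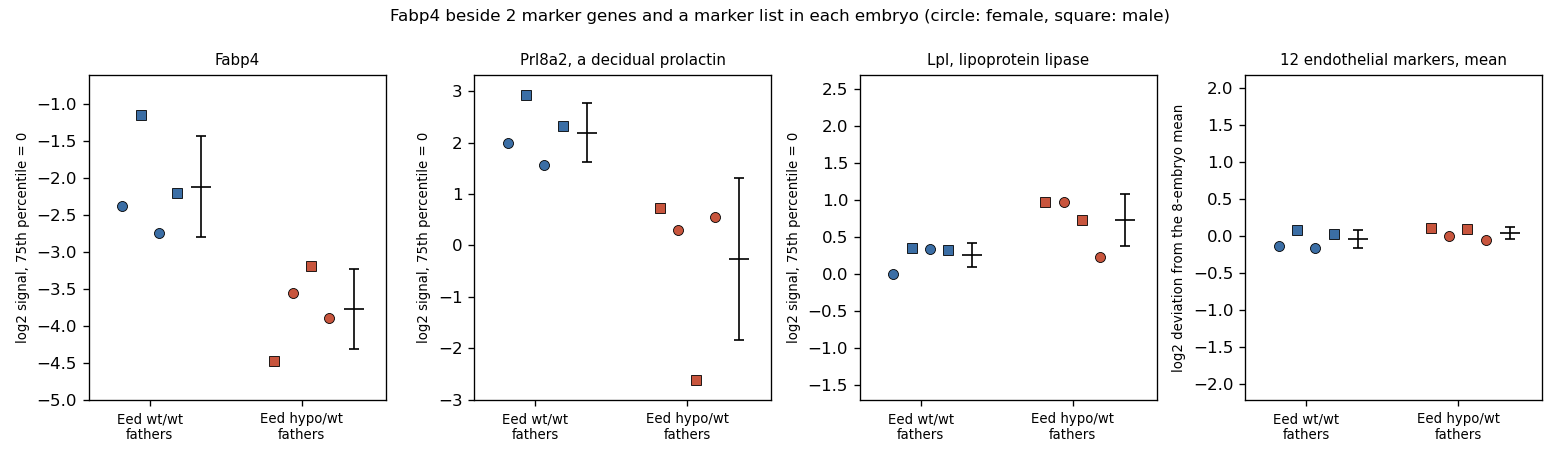
Log2 signal of *Fabp4*, *Prl8a2* and *Lpl* (75th percentile of each array at 0), and the mean log2 deviation of 12 endothelial genes from the mean of the 8 embryos, with 1 point per embryo and the mean and SD of each group of 4. *Fabp4* and *Prl8a2* were lower in all 4 embryos of *Eed* hypo/wt sires, *Lpl* had a higher mean there (0.73 against 0.26), and the endothelial means overlapped.

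Tested genes beside *Fabp4* on its chromosome, apart from the dim *Fabp9*, had differences near 0. In RefSeq order the cluster runs *Fabp5*, *Pmp2*, *Fabp9*, *Fabp4*, *Fabp12*, followed by *Impa1*, *Slc10a5*, *Zfand1*, *Chmp4c* and *Snx16*. The neighbours *Fabp5* (-0.01), *Impa1* (0.02), *Zfand1* (0.03), *Chmp4c* (0.001) and *Snx16* (-0.02) had log2 differences within 0.03 of 0. *Slc10a5*, and *Pag1* on the far side of *Fabp5*, were well above background on 2 of 8 arrays each and were not tested, with measured differences of 0.96 and 0.65. *Pmp2*, which encodes the FABP of peripheral myelin, was not well above background on any array, and the 2 *Fabp12* probes were so on 1 and 0 arrays. *Fabp9*, a testis FABP, was well above background on 4 of 8 arrays and differed by -0.45 with a standard error of 1.27.

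The genes whose signal most resembled *Fabp4* over the 8 embryos, among 15377 genes with a tested probe, were *Slc6a12* (Pearson r = 0.97), a transporter of betaine and GABA, *Rsrc2* (0.96), *Mbnl2* (0.93), *Jup* (0.93), which encodes the junction protein plakoglobin, and *Scap* (0.93). *Slc6a12* differed between the father groups by -1.02 and *Jup* by -0.41. These r values include the father difference that *Fabp4* was chosen on, so lower signals with *Eed* hypo/wt sires follow from the search and are no separate result. When each father group's mean was removed first, the highest were *Pgc* (0.98), *Mymx* (0.95), *Ect2* (0.93), *Guca2a* (0.92) and *Wipi1* (0.92), and these lists had no gene in common. Such r values describe 8 points that share slides, and were the highest of a search over all genes.

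Among the other 5 genes, none of the 6 probes passed an adjusted p under 0.01 with at least 2-fold between the father groups, where 0% of all tested probes did. None had an unadjusted p under 0.05 either, against 4.4% of all tested probes, and each had an adjusted p of 1 (limma). Their groups overlapped at each of these probes. The median difference over all tested probes was 0.003, and aligning arrays on medians in place of the 75th percentile moved every father difference by -0.11 and every sex difference by -0.14.

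*Fabp3*, the heart and muscle carrier, had the largest of these differences and the only interval that nearly left out 0. Its brighter probe measured 1.14, 0.46, 0.76 and 0.41 in WT-father replicates 1 to 4 and 1.37, 1.08, 1.32 and 0.80 in HET-father replicates 1 to 4. The 2 males of *Eed* wt/wt sires were the lowest and the 2 males of *Eed* hypo/wt sires the highest. The difference was 0.45, or 1.37-fold, with a 95% interval from -0.03 to 0.94 (unadjusted p = 0.0538, adjusted p = 1, limma).

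The dimmer *Fabp3* probe measured 0.76, 0.15, 0.36 and 0.05 with *Eed* wt/wt sires and 1.00, 0.69, 0.79 and 0.40 with *Eed* hypo/wt sires. It ordered the groups in the same way, with a difference of 0.39 and an interval from -0.07 to 0.85 (unadjusted p = 0.0738, adjusted p = 1, limma). The probes lay 0.39 ± 0.06 (SD, n = 8) apart and correlated at r = 0.99 over the embryos, on the same arrays. Under the alternatives the difference of the brighter probe lay between 0.35 and 0.60, with adjusted p-values from 0.498 upward and unadjusted ones from 0.0103 (replicate number as a block) to 0.32 (arrays aligned on medians). Its unadjusted p also came under 0.05 without WT-father replicate 1 (0.0109), without HET-father replicate 4 (0.0255), without WT-father replicate 1 and HET-father replicate 3 together (0.0245), with array weights (0.0199), with trended moderation (0.0348) and where detection on all 8 arrays was required (0.0453).

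Heart markers were read beside *Fabp3*. All 10 myocardial genes were tested, with a median father difference of 0.02 and 7 of 10 higher (median -0.09 with arrays aligned on medians and -0.002 with quantile normalization), and the largest was 0.33 for *Nppa*, the atrial natriuretic peptide (unadjusted p = 0.546). Their summed level was 212 to 226 with *Eed* wt/wt sires and 207 to 236 with *Eed* hypo/wt sires. *Bad* (0.97), *Adipor2* (0.97), *Ndrg2* (0.96), *Zkscan6* (0.96) and *Mag* (0.96) had the highest r to *Fabp3* over the 8 embryos.

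*Fabp1*, the liver-type carrier, measured 1.40, 1.70, 1.53 and 1.01 with *Eed* wt/wt sires and 1.45, 1.12, 1.45 and 1.67 with *Eed* hypo/wt sires. The difference was 0.01 with an interval from -0.41 to 0.44. *Fabp2*, the intestinal carrier, measured 2.49, 2.17, 2.02 and 1.69 against 1.70, 2.16, 1.83 and 2.14, and differed by -0.13 with an interval from -0.60 to 0.33.

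Both carriers are known in absorptive endoderm, which at this stage includes the visceral yolk sac. Of 12 yolk sac genes, 11 were matched and tested, with a median father difference of -0.01, and the largest was -0.44 for *Apoa4*, an apolipoprotein of lipid-absorbing cells (unadjusted p = 0.172). Their summed level was 548 to 759 with *Eed* wt/wt sires and 659 to 691 with *Eed* hypo/wt sires. The lowest *Fabp1* and the lowest *Fabp2* signals were both in WT-father replicate 4. The mean of the yolk sac list was also the lowest there, at -0.27 against 0.12 to 0.17 in the other embryos of that group. *Fabp2* was nearly as low in HET-father replicate 1 (1.70 against 1.69), where the yolk sac mean was -0.08. This match at a single embryo was seen after the fact, and a link was not tested.

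*Fabp5*, the epidermal carrier, was the steadiest member. It measured 6.55, 6.55, 6.58 and 6.53 with *Eed* wt/wt sires, an SD of 0.02, and 6.37, 6.42, 6.80 and 6.59 with *Eed* hypo/wt sires, an SD of 0.20. The means differed by -0.01 with an interval from -0.26 to 0.25. Its SD over the 8 embryos was at percentile 25.9 of all tested probes, the lowest rank among the members.

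*Fabp7*, the radial glia carrier, measured -0.88, -0.92, -0.99 and -0.42 with *Eed* wt/wt sires and -0.83, -0.98, -0.69 and -0.55 with *Eed* hypo/wt sires. The difference was 0.04 with an interval from -0.33 to 0.41. The 9 neuroepithelial genes had a median difference of -0.06, with *Pax3* at -0.22 (unadjusted p = 0.0316, adjusted p = 1, limma), and summed levels of 60.9 to 70.7 and 60.4 to 70. The genes closest to *Fabp7* over the embryos were *Gnao1* (r = 0.97), *Nceh1* (0.96), *Smarcd3* (0.95), *Lin28a* (0.95) and *Sall3* (0.94).

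**Figure D3:**
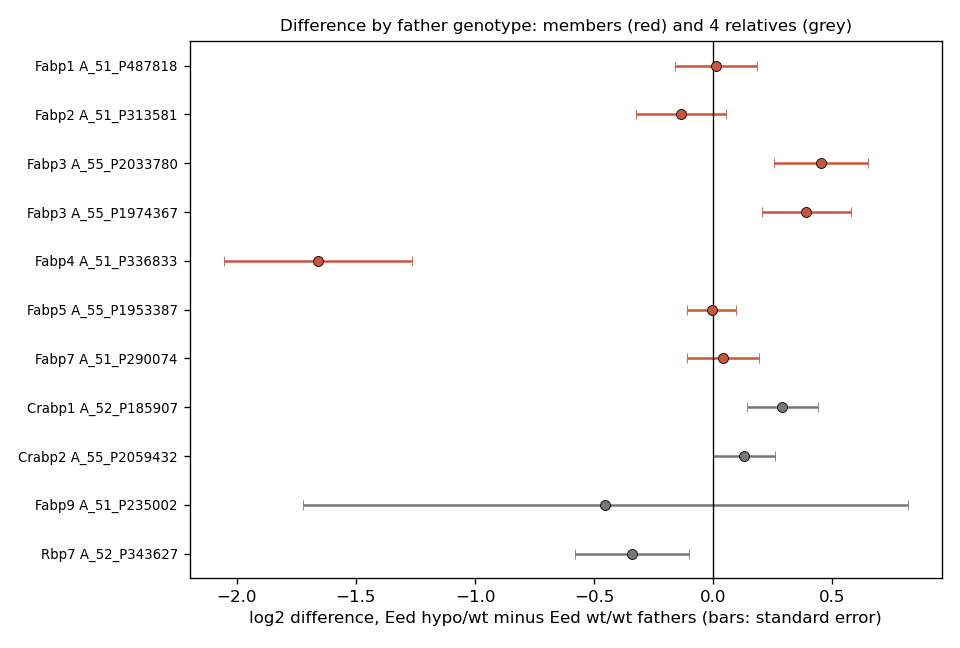
Log2 difference of each member probe (red) and of 4 relatives (grey), *Eed* hypo/wt minus *Eed* wt/wt sires, with the standard error from limma as bars. *Fabp4* was chosen for its value of -1.66, so its place and its bar are a description and no test. The other 6 member probes lie between -0.13 and 0.45.

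Retinoid carriers of the same protein fold were mostly bright. *Crabp1* and *Crabp2*, which bind retinoic acid, differed by 0.29 (unadjusted p = 0.0905) and 0.13. *Rbp7*, a retinol carrier known in endothelium, differed by -0.34 with a standard error of 0.24. *Rbp2* was well above background in 3 embryos of *Eed* wt/wt sires and in 0 of the other group, yet its measured means were -5.79 and -5.47, with the higher one in the group without detection. *Fabp6*, the ileal bile acid carrier, was well above background on 2 of 8 arrays.

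The sexes differed little in the family. With father as a covariate, 0.0332% of all tested probes were called by sex at an adjusted p under 0.01 and at least 2-fold, and 0 of the 7 member probes were. At an unadjusted p under 0.05, 3.28% of all probes and 1 of the 7 member probes passed. That probe was *Fabp2*, which averaged 2.20 ± 0.20 in the 4 females and 1.85 ± 0.23 in the 4 males (SD), a difference of -0.36 (unadjusted p = 0.0492, adjusted p = 1, limma). WT-father replicate 2, at 2.17, was the male that overlapped with the females, and the difference was -0.32 within the WT-father slide and -0.39 within the other.

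*Fabp4* was 0.39 higher in males (standard error 0.40, unadjusted p = 0.361), by 0.89 within the WT-father slide and by -0.11 within the HET-father slide. The remaining probes differed by sex by -0.05 to 0.13. Among the marker lists, *Plvap* (0.28), *Kdr* (0.38), *Cldn5* (0.24) and *Cdh5* (0.28) of the endothelium had higher signals in males, and *Gata1* (-0.57) of the primitive erythroid genes a lower one, each without overlap of the sexes, where 1.18% of probes were higher and 1.39% lower in this way. *Apoa4* of the yolk sac was 0.62 lower in males (unadjusted p = 0.0171). Each of these had an adjusted p of 1 (limma), and their part in the values of *Fabp2* and *Fabp4* was not tested.

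Of the members, *Fabp3* had the smallest unadjusted p for the interaction of father and sex. With *Eed* wt/wt sires the brighter probe averaged 0.95 in females and 0.44 in males, a difference of -0.51. With *Eed* hypo/wt sires it averaged 0.94 in females and 1.35 in males, a difference of 0.41. Females of the father groups thus differed by -0.01 and males by 0.91.

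The interaction of father and sex was 0.92 at the brighter *Fabp3* probe (standard error 0.24, unadjusted p = 0.0104) and 0.81 at the dimmer one (standard error 0.26, unadjusted p = 0.0252). Neither passed the adjustment over all probes (adjusted p = 0.996, limma), and 2.23% of all tested probes had an unadjusted p under 0.05. Sexes that did not overlap within either father group and lay in opposite orders were found at 3.43% of the tested probes, and at both *Fabp3* probes. The interaction at the brighter *Fabp3* probe depended on the scaling. It was 0.17 (unadjusted p = 0.832) with arrays aligned on medians, 0.73 to 1.11 with an embryo left out, and 0.76 to 0.94 where it was recomputed otherwise. Each of these means rests on 2 embryos, and the other 5 members had unadjusted p-values of 0.241 or more.

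**Figure D4:**
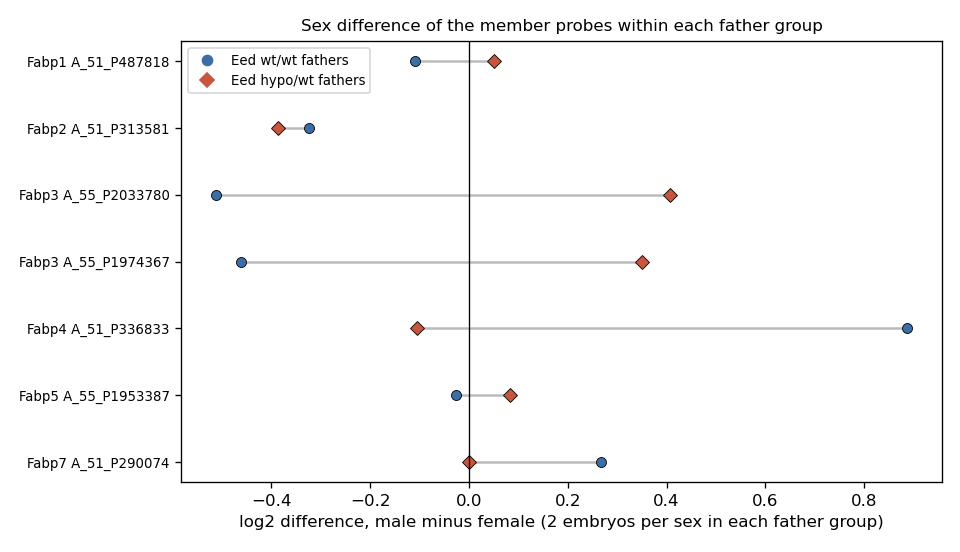
Log2 difference between male and female embryos at each member probe, within the group of *Eed* wt/wt sires (blue circles) and of *Eed* hypo/wt sires (red diamonds), each from 2 males and 2 females. The *Fabp3* probes lie on opposite sides of 0, at -0.51 and 0.41 and at -0.46 and 0.35, while *Fabp2* is below 0 in both groups.

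Genes that bring fatty acids into cells and activate them were all measured. Of 15 genes, 15 were tested, of which 9 were higher in the HET-father group and 6 lower, with a median of 0.06 that was -0.05 with arrays aligned on medians and -0.01 with quantile normalization. *Lpl*, the lipase that frees fatty acids from lipoproteins at the vessel wall, was the one at an unadjusted p under 0.05, with 0.01, 0.35, 0.34 and 0.33 against 0.97, 0.98, 0.74 and 0.24. The groups overlapped through HET-father replicate 4, and the difference was 0.48 (unadjusted p = 0.0317, adjusted p = 1, limma). *Cd36*, a fatty acid receptor, differed by -0.04 with father and by 0.30 with sex (unadjusted p = 0.0668).

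The nuclear receptors and partners had 11 of 12 genes tested and a median of 0.02 that turned to -0.08 with arrays aligned on medians, -0.03 with normexp and -0.01 with quantile normalization. *Rxra*, the RXR that pairs with PPARs, measured -3.74, -3.70, -3.81 and -3.77 with *Eed* wt/wt sires and -3.68, -3.57, -3.46 and -3.57 with *Eed* hypo/wt sires. The groups did not overlap, as at 1.81% of probes in this direction, and the difference was 0.18 (unadjusted p = 0.0328, adjusted p = 1, limma). *Pparg*, the receptor that drives *Fabp4* in fat cells, was well above background in all 8 embryos and differed by 0.02.

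Lipid droplet and lipolysis genes had 14 of 16 tested, 10 higher and 4 lower, a median of 0.06 (-0.04 with arrays aligned on medians) and none at an unadjusted p under 0.05, and *Plin1* and *Cidea*, which coat the droplets of fat cells, were not well above background on any array. *Pnpla3*, a lipase-like droplet protein, had the largest difference, 0.38 (unadjusted p = 0.49). Mitochondrial import and oxidation had 15 of 15 tested, 11 higher and 4 lower, a median of 0.08 (-0.03 with arrays aligned on medians), none at an unadjusted p under 0.05, and 0.32 for the carnitine carrier *Slc25a20* as its largest difference (unadjusted p = 0.142).

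Synthesis and desaturation had 14 of 14 tested, 12 higher and 2 lower, with a median of 0.09 that was -0.02 with arrays aligned on medians. *Elovl5*, an elongase of polyunsaturated fatty acids, was 0.20 higher (unadjusted p = 0.0344), and *Mlxipl*, which encodes the carbohydrate-responsive factor ChREBP, was -0.34 (unadjusted p = 0.0315). By sex, *Srebf2*, a regulator of sterol synthesis, was 0.62 higher in males without overlap (unadjusted p = 0.00509). No gene of these lists was called by father or by sex, and each had an adjusted p of 1 (limma). The primitive erythroid genes, the last of the marker lists, were 8 of 8 higher with *Eed* hypo/wt sires, with a median of 0.21 that was 0.08 to 0.19 under the other scalings, the largest at *Klf1* (0.53, unadjusted p = 0.109), and summed levels of 477 to 1087 and 749 to 942. WT-father replicate 4 carried this median, which was -0.02 without that embryo, and the mean deviation of the list was -0.99 there against -0.05 to 0.40 in the other embryos of its group.

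**Figure D5:**
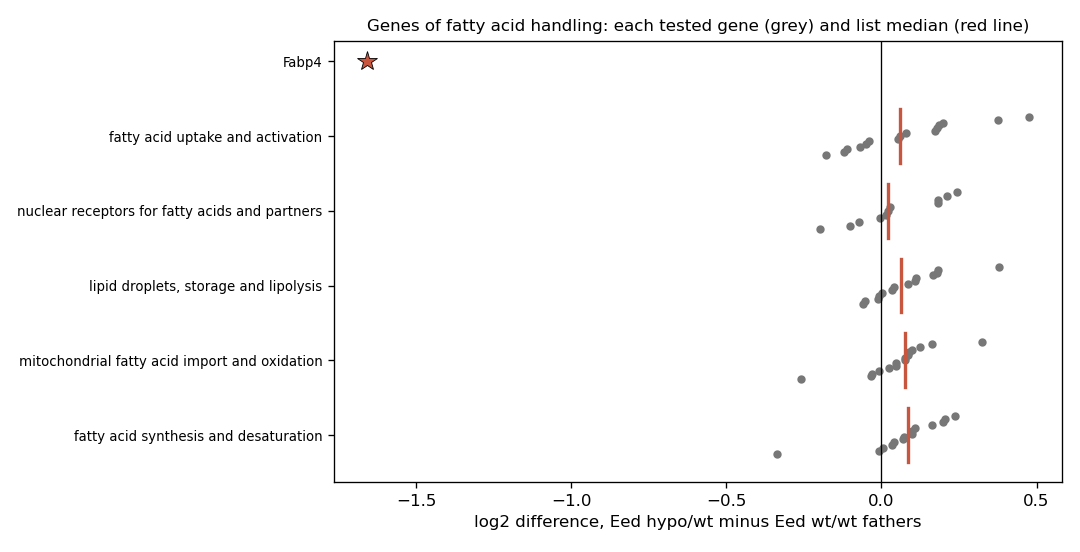
Log2 difference of every tested gene in 5 lists of fatty acid handling (grey) with the list median (red line), *Eed* hypo/wt minus *Eed* wt/wt sires, and *Fabp4* as a star. The list medians lie between 0.02 and 0.09 on this scale, all below 0 when arrays are aligned on medians, and no gene of the lists lies near *Fabp4* at -1.66.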

How the data were processed

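RNA of 8 embryos was labelled with Cy3 and hybridised to Agilent 8x60K arrays. The authors' extraction software was Agilent Feature Extraction (11.0.1.1), which removed background and spatial trends, and the deposited intensity values are not scaled from array to array. A second deposited file lists intensity by spot for all arrays and served as an alternative, with 0 sample columns unused. From the log2 intensity each array's 75th percentile was subtracted. Control spots and spots marked as outliers were dropped before replicate spots were averaged. A test required a mean above the lowest 20% of probes and detection over background on 4 or more of 8 arrays, which 33094 probes met. The number of arrays limits the precision.

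Groups came from the labels and were compared with limma 3.58.1 (in R 4.3.3, with version 1.17.8 of data.table) over all tested probes. A call needed a 2-fold difference and, after Benjamini-Hochberg adjustment, a p under 0.01. Intervals are at 95%. They use the limma standard error with the residual degrees of freedom alone, without those that moderation adds to the p-values. They are therefore slightly wider than intervals matched to these p-values. Of 28685 probes with a RefSeq accession, 27235 were given symbols from RefSeq (GRCm38.p6), and a gene was read at its brightest tested probe. Named were all member and family probes, up to 4 genes per list and contrast with the smallest unadjusted p under 0.05 or else the gene with the largest difference, and the 5 most alike genes. *Adipoq*, *Retn*, *Pag1*, *Slc10a5*, *Cd36*, *Csf1r*, *Pparg*, *Dcn*, *Plin1*, *Cidea*, *Lep*, *Lyz2*, *Tpbpa* and the endothelial minimum *Cdh5* were named outside this rule, after their values were seen. Some genes that this rule includes are not reported here. The members and lists were chosen with earlier results of these data known. Alternatives were other scaling, background correction, filters, blocks, moderation, weights, thresholds and embryos left out. Figures were drawn with matplotlib 3.10.9 and pandas 2.3.3 under Python 3.11.15.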

Additional observations from a re-analysis of the deposited data

Results flagged for a closer look

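Dixon's test at the 95% level was applied to groups of 4 embryos, comparing the distance from an extreme embryo to the next with the whole spread. It marked 2 of 46 groups, and chance flags about 1 in 20. No member probe was among them. The mean of the visceral yolk sac endoderm list in the WT-father group had a share of 0.894. Replicate 4 was at -0.27 against 0.12 to 0.17 on the log2 scale. That embryo also had the lowest *Fabp1* signal and, narrowly, the lowest *Fabp2* signal (1.69 against 1.70 in HET-father replicate 1), and a link was not tested. The mean of the heart tube list in the HET-father group had a share of 0.859, with replicate 4 at -0.21 against 0.09 to 0.14. *Nppa* weighed on this mean, at -0.68 in replicate 4 against 1.45 to 1.54 in the rest of the group. Not every gene of the list was low there, since *Ttn* measured 0.62 against 0.30 to 0.61. The local background of the replicate 4 array was 133, while the remaining 3 arrays of that slide had 30 to 32. Its part in the list mean was not tested.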

How the results depend on the processing

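The *Fabp4* difference, whose direction follows from how the gene was chosen, lay between -1.95 and -1.18 under 23 alternatives, and the number of called members and listed genes stayed at 0 in each fit. Over all probes, 0 were called by father, or 1 without WT-father replicate 1 or without HET-father replicate 4, and the number at an unadjusted p under 0.05 ran from 479 (arrays aligned on medians) to 5360 (no filter on dim probes), against 1455, with 3094 without HET-father replicate 3. Sex calls were 0 to 13 against 11, with 4 to 9 when an embryo was left out and 0 where detection on all 8 arrays was required. Interaction calls were 0, or 4 with arrays aligned on medians, and the 737 at an unadjusted p under 0.05 became 4888 without HET-father replicate 1, 405 without WT-father replicate 1 and 1169 without WT-father replicate 3. Small differences changed sign, and the cause was not tested. For the father difference of *Fabp1* these were -0.0946 with arrays aligned on medians, -0.00983 with quantile normalization, -0.0293 with normexp, -0.145 with array weights, -0.000576 without WT-father replicate 1 and HET-father replicate 3 together, and -0.122 to 0.111 with an embryo left out. *Fabp2* had 0.0401 without that pair and -0.269 to -0.00269 with an embryo left out, *Fabp5* -0.0913 to 0.0523 with an embryo left out, and *Fabp7* -0.0659 with medians, -0.0562 with normexp, -0.00942 without that pair and -0.0311 to 0.167 with an embryo left out. By sex, *Fabp1* had 0.0375 with array weights, 0.0509 within the HET-father slide and -0.155 to 0.124 with an embryo left out. *Fabp3* had 0.0543 without the pair, 0.407 within the HET-father slide and -0.201 to 0.115 with an embryo left out, and *Fabp4* had -0.105 within that slide. *Fabp5* had -0.117 with medians, -0.0236 with array weights, -0.0854 without the pair, -0.0259 within the WT-father slide and -0.0686 to 0.104 with an embryo left out, and *Fabp7* had -0.0114 with medians and -0.000116 within the HET-father slide.

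With the replicate number as a block, 875 probes had an unadjusted p under 0.05 by father and 0 were called by sex. Deviations of same-numbered embryos over all tested probes correlated at -0.55, -0.05, -0.59 and -0.15 for replicates 1 to 4. Replicates 1 and 3 include the arrays with the most probes above background. These values therefore cannot settle whether the numbers pair the embryos. With 4 embryos per group and each group on its own slide, dim probes such as *Fabp4* and *Fabp9* limit what these arrays show.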

Other observations

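Among the 6 genes, read at their brightest probes over the 8 embryos, *Fabp3* and *Fabp4* had the most negative r (-0.69), which was -0.35 once each father group's mean was removed. The most positive was 0.31, between *Fabp1* and *Fabp2*, and it was 0.33 after removal of the group means. These values describe 8 embryos whose arrays share 2 slides, and were not tested.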
